A study of Danio rerio with 4 samples.

Results

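A set of 10 macrophage-associated genes was followed in bulk RNA-seq of cryoinjured zebrafish ventricles, namely the macrophage perforin genes *mpeg1.1* and *mpeg1.2*, the scavenger receptor gene *marco*, the C1q chain genes *c1qa*, *c1qb* and *c1qc*, and the granulin genes *grna*, *grnb*, *grn1* and *grn2*. They were taken by their Ensembl gene names from a table of normalized counts, in which each of the 10 was listed once among 20984 genes. All 10 were abundant enough to be compared, like 16065 of the listed genes, the minimum being an average of 10 normalized counts over the ventricles. In *cd74a; cd74b* mutants, 4 of the 10 fell (*mpeg1.1*, *mpeg1.2*, *grna* and *grn2*), against 7.44% of all tested genes, and 0 rose, against 2.7%. In 9 of the 10, the mutants did not reach the level of either wild type, against 29.4% of all tested genes, and *grnb* was the exception. The log2 fold change was below 0 in all 10, against 47.8% of all tested genes.

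Macrophages enter the injured heart, take up dead cells and debris, and help to shape the repair response. The *mpeg1* genes encode perforin-2, a pore-forming protein that phagocytes use against engulfed bacteria, and the *mpeg1.1* promoter is widely used in zebrafish to label macrophages, although it is also active in B cells. C1q, built from A, B and C chains, starts the classical complement pathway and tags dying cells for removal, and in mammals most of it is made by macrophages. MARCO is a collagen-like scavenger receptor on the surface of macrophages. Granulins are cysteine-rich modules released from progranulin, a secreted and lysosomal growth factor that restrains inflammation in mammals. In zebrafish, *grna* and *grnb* are regarded as the progranulin orthologs, whereas *grn1* and *grn2* encode shorter granulins.

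The compared groups were 2 *cd74a; cd74b* mutants and 2 wild types, each a single cryoinjured ventricle of an adult zebrafish of the AB strain. The mutants carried CRISPR-Cas9 deletions in *cd74a* (allele bns454) and *cd74b* (allele bns456), the paralogs of Cd74, the invariant chain of MHC class II, and the deletions were present in all cells of the fish and not only in immune cells. Each genotype comprised a female and a male, but the labels do not say which ventricle is which. Collection was at 120 hours post-cryoinjury (hpci) in the paper, whereas the deposited design text gives 7 days, and no uninjured ventricle was analysed here. Mutants and wild types were bred in separate crosses of related batches, so that genotype and parentage cannot be told apart.

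The normalized counts are read counts that the authors scaled with a library size factor and rounded. They summed to 4198389 and 4382529 in the mutants and to 4278663 and 4123819 in the wild types. The targeted genes followed the labels, with 131 and 117 normalized counts of *cd74b* in mutants, against 622 and 678 in wild types, and 408 and 401 of *cd74a* in mutants, against 837 and 913 in wild types. Cardiomyocyte genes marked the tissue as heart in all 4 libraries, with *myl7*, a cardiac myosin light chain, at 1043 and 1209 in mutants, against 970 and 1040 in wild types. In no ventricle did a gene exceed 1 normalized count per base of its span, the highest being 0.977, and what this means for abundant, short genes was not tested. The atrial myosin gene *myh6* spread widely, at 1250 and 154 in mutants and at 1352 and 3908 in wild types, and red cell genes were highest in the second wild type.

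Genes were compared with limma on the log2(normalized count + 1) scale, which slightly understates the changes of low genes, and calls required a Benjamini-Hochberg adjusted p-value under 0.05 together with a log2 difference of 0.59 or more in either direction. The median log2 fold change was -0.61 over the 10 genes, against 0.03 over all tested genes. The mutants exceeded both wild types in 0 of the 10, against 30.5% of all tested genes. Before adjustment, 7 of the 10 genes had a p-value under 0.05, against 29% of all tested genes. All 4 calls were lost without the minimum on low values, with limma adjusted p-values from 0.0602 to 0.0933, and without the trend of variance with mean level, with 0.0694 to 0.114. These genes were chosen with earlier results of the same libraries known, so their share is a description and carries no test of its own. The same holds for the lists of perforin, complement, C1q-binding, scavenger receptor and progranulin partner genes below. The adjusted p-values depend on variance information shared between genes, because 2 ventricles per genotype give little of it for a single gene. An exact permutation test of 2 against 2 ventricles, which shares nothing between genes, cannot give a p-value below 0.33. With any 1 of the 4 ventricles left out, limma called 0 of all tested genes (2174 to 3373 at an unadjusted p-value under 0.05), the lowest adjusted p-value then being 0.124 to 0.265, while 5 or 6 of the 10 passed 0.05 before adjustment. The labels do not say whether the ventricles of a genotype came from separate clutches. The p-values rest only on the spread between these ventricles, with the variances shared between genes.

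**Figure D1:**
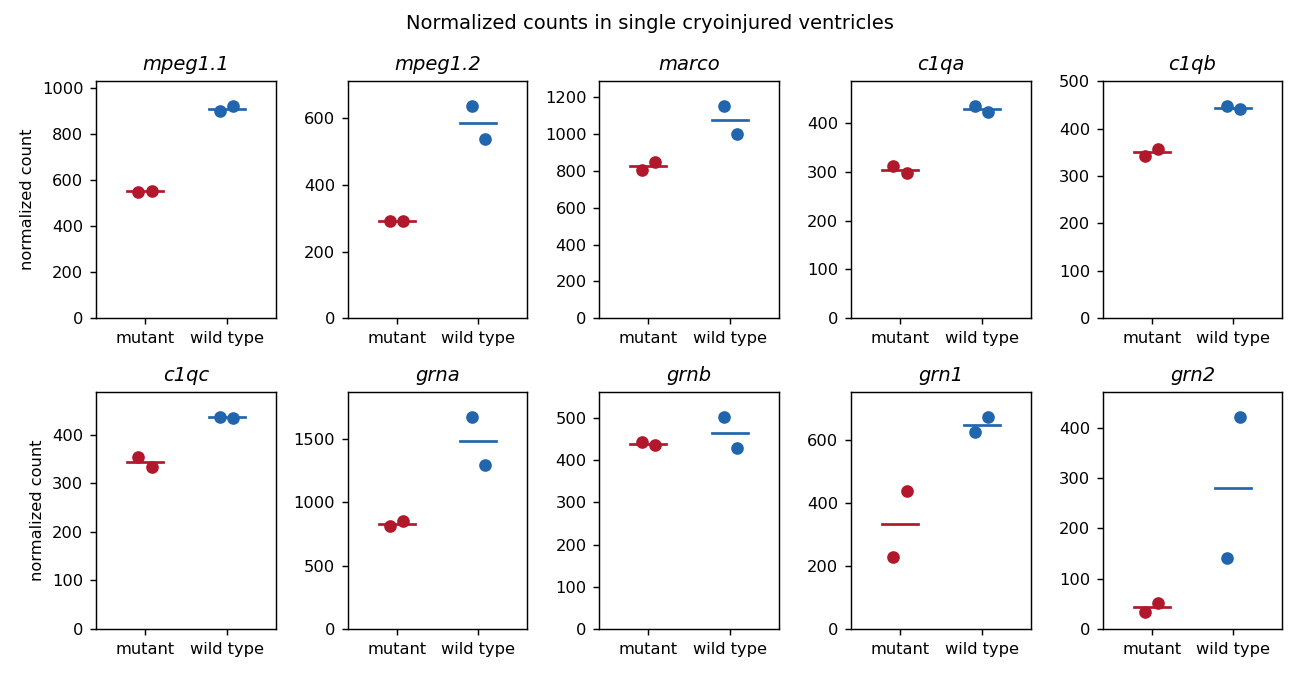
Normalized counts (vertical axes, each starting at 0) of the 10 genes in single ventricles, with mutants in red and wild types in blue. Points are ventricles and bars are means of 2. The mutant points lie below the wild-type points in every panel except *grnb*, and the points of *grn1* in mutants and of *grn2* in wild types are far apart.

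Both macrophage perforin genes fell in the mutants. *mpeg1.1* lies on the reverse strand of chromosome 8 of danRer11, between bases 29710110 and 29713621, and is the copy whose promoter labels macrophages. It had 548 and 553 normalized counts in mutants, against 900 and 920 in wild types. The ventricles of each genotype were close to each other and the groups did not overlap. The mutant mean was 0.605 of the wild-type mean, and the difference was -0.72 on the log2 scale (SE 0.13, limma adjusted p-value 0.0220).

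*mpeg1.2*, a second copy on the forward strand of the same chromosome from 19356072 to 19359834, had 292 normalized counts in both mutants, against 636 and 537 in wild types. The mutants were equal and the first wild type was the higher of its pair, without overlap between the genotypes. The log2 difference was -1.0 (SE 0.16, limma adjusted p-value 0.0149). Summed over the pair, macrophage perforin reached 840 and 845 in mutants, against 1536 and 1457 in wild types, or 842.5 ± 3.54 and 1496.5 ± 55.9 (SD, n = 2 each). *mpeg1.1* made up 65.2 and 65.4% of this sum in mutants, against 58.6 and 63.1% in wild types, so that the shares of the copies moved little compared with the sum. Leaving out single ventricles gave log2 fold changes from -0.74 to -0.71 for *mpeg1.1* and from -1.12 to -0.88 for *mpeg1.2*, with no call in either, as for all genes.

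The nearest genes on each side of the macrophage perforins were not called. *mpeg1.3*, a further copy 54.2 kb from *mpeg1.1*, was near the lower limit, with 3 and 2 normalized counts in mutants, against 8 and 7 in wild types, and was not tested. *prf1.5*, a gene of the perforin 1 family that starts 8.68 kb from *mpeg1.1*, had 215 and 239 normalized counts in mutants, against 268 and 249 in wild types, a log2 fold change of -0.19 (limma adjusted p-value 0.51). The gene on the other side, *si:ch211-103n10.5*, which starts 8.58 kb away, had 176 and 137 in mutants, against 240 and 415 in wild types, or a log2 difference of -1.02, short of a call (limma adjusted p-value 0.0631). The genes beside *mpeg1.2* were *rgl1* and *zgc:92140*, with log2 fold changes of -0.27 and 0.45. Of the list of other perforin-type pore genes, including terminal complement components, 10 of 17 were in the table and 7 were tested. Of the 7, 0 were called in either direction by limma (1 at an unadjusted p-value under 0.05), with a median log2 fold change of -0.19. Over all tested genes, 7.44% were called lower and 2.7% higher. The authors did not count reads that aligned to several regions, so values of copies that share sequence are uncertain.

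The 3 C1q genes lie side by side on the reverse strand of chromosome 21, in the order *c1qb* (22712307 to 22715297), *c1qc* (22717824 to 22720381) and *c1qa* (22721957 to 22724980). The targeted gene *cd74b* is on the same chromosome, 10.7 Mb away, and no gene of the 10 is on the chromosome of *cd74a*. In each C1q gene the mutants were lower by a modest and similar amount, and none of them passed the threshold for a call.

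*c1qa*, which encodes the A chain, had 311 and 298 normalized counts in mutants, against 434 and 423 in wild types. The 4 values formed a tight pair per genotype. The log2 difference was -0.49 (SE 0.15, 95% confidence interval -0.85 to -0.14, limma adjusted p-value 0.0805). For the B chain gene *c1qb*, the values were 343 and 357 in mutants, against 447 and 441 in wild types, and the log2 fold change was -0.34 (95% confidence interval -0.69 to 0.00, limma adjusted p-value 0.18). For *c1qc*, the C chain gene, they were 353 and 333 in mutants, against 436 and 435 in wild types, again with a log2 fold change of -0.34 (95% confidence interval -0.69 to 0.01, limma adjusted p-value 0.18). All 3 estimates were smaller in size than the limit of 0.59, so these genes could not have been called at any p-value.

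Added together, the C1q chains reached 1007 and 988 in mutants, against 1317 and 1299 in wild types, that is, 997.5 ± 13.4 and 1308 ± 12.7 (SD, n = 2 each) or 0.763 of the wild-type sum. The difference between the sums was many times the spread within either genotype, while the exact permutation p-value was 0.33, the lowest possible. That spread rests on 2 values per genotype, too few to measure the variation between animals. The A chain contributed 30.9 and 30.2% of the sum in mutants, against 33.0 and 32.6% in wild types. After cyclic loess normalization, *c1qa* was called, with a log2 fold change of -0.60 (limma adjusted p-value 0.0463), whereas *c1qb* and *c1qc* were not.

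*marco* lies on the reverse strand of chromosome 9 from 795609 to 813693. It had 806 and 849 normalized counts in mutants, against 1150 and 999 in wild types. The wild types were further apart from each other than the mutants, but the groups did not overlap. The log2 fold change of -0.37 did not pass the threshold (SE 0.14, 95% confidence interval -0.71 to -0.04, limma adjusted p-value 0.14). Omitting ventricles in turn gave values between -0.47 and -0.27.

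**Figure D2:**
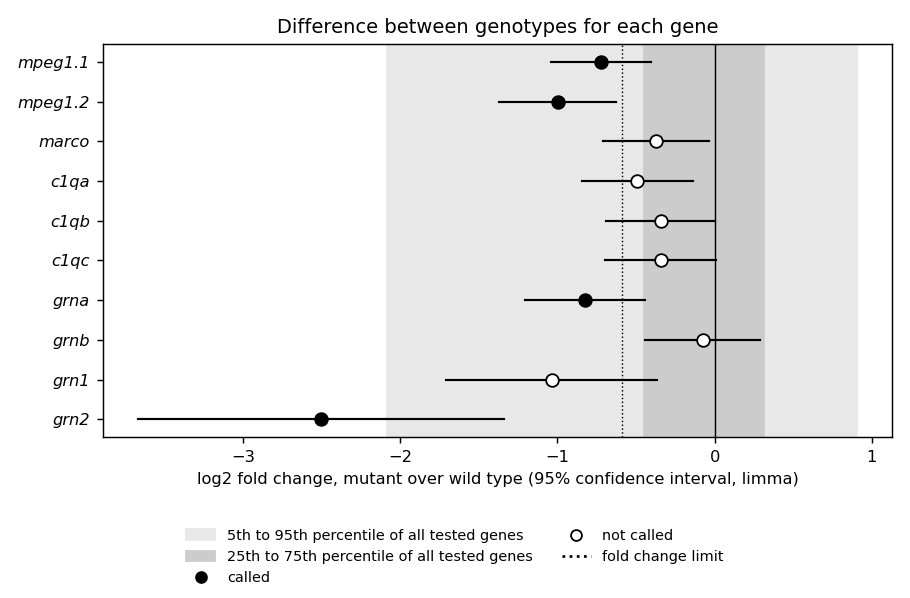
Log2 fold change of mutants over wild types for each gene (points) with limma's 95% confidence interval (lines). Filled points are called genes, the dotted line marks the fold change limit of -0.59, and the shaded bands hold the central part of all 16065 tested genes. The points run from -2.50 for *grn2* to -0.08 for *grnb*, and the 3 C1q genes and *marco* lie between the limit and 0.

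The granulin genes differed from each other more than the other families. *grna*, on the reverse strand of chromosome 3 from 29914427 to 29941357, had 811 and 850 normalized counts in mutants, against 1671 and 1294 in wild types. The mutants were close together and the wild types were not, although each wild type was well above both mutants. *grna* fell by 0.82 on the log2 scale (SE 0.16, limma adjusted p-value 0.0248). This call was lost when low genes were kept in (limma adjusted p-value 0.0786) and when the variance trend was left out (0.114). *grnb*, its counterpart on chromosome 24 (36339242 to 36364591, forward strand), had 443 and 436 in mutants, against 502 and 428 in wild types. Both mutants lay between the wild types, and the log2 fold change was -0.08 (95% confidence interval -0.44 to 0.29, limma adjusted p-value 0.78). The interval includes no change as well as changes of modest size in either direction. Within each ventricle, the ratio of *grna* to *grnb* was 1.83 and 1.95 in mutants, against 3.33 and 3.02 in wild types, without overlap.

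*grn2* had the largest decrease of the 10 genes. It lies on the reverse strand of chromosome 19 from 40196462 to 40199098 and had 34 and 52 normalized counts in mutants, against 140 and 421 in wild types. The second wild type was far above the first, and both mutants were below either. The log2 difference was -2.50 (SE 0.50, 95% confidence interval -3.66 to -1.34, limma adjusted p-value 0.0251), which placed *grn2* as the 538th lowest of 16065 tested genes. Its size rested on the wild types, since it was -3.29 without the first wild type and -1.71 without the second, and no gene was called in either case.

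*grn1*, whose first base is 9.79 kb from that of *grn2* (40186677 to 40192249, reverse strand), had 228 and 439 normalized counts in mutants, against 627 and 674 in wild types. Here it was the mutants that were far apart, with the second mutant the closer to the wild types. The log2 fold change of -1.04 did not pass the threshold (SE 0.29, 95% confidence interval -1.71 to -0.37, limma adjusted p-value 0.0625). It was -0.57 without the first mutant and -1.51 without the second. The call of *grn1* depended on the scaling of the libraries, as it was called when the libraries were scaled to the same total (limma adjusted p-value 0.0440) or to the same upper quartile (0.0402), and after cyclic loess normalization (0.0378). With precision weights from voom in place of the mean-variance trend, *grn1* was called (limma adjusted p-value 0.0378) and *grn2* was not (0.0647). This setting also scaled each library to its total, so the effects of weights and scaling are not separated. The paper names *grn1*, *grn2* and *grna* among the genes downregulated in the mutants, and its methods used DESeq2 instead of limma.

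Summed over the 4 granulin genes, the normalized counts were 1516 and 1777 in mutants, against 2940 and 2817 in wild types, or 1646.5 ± 185 and 2878.5 ± 87.0 (SD, n = 2 each). *grnb* accounted for 29.2 and 24.5% of the granulin sum in mutants, against 17.1 and 15.2% in wild types. The share of *grn2* was 2.24 and 2.93% in mutants, against 4.76 and 14.9% in wild types. The plot of family sums by ventricle shows these parts.

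**Figure D3:**
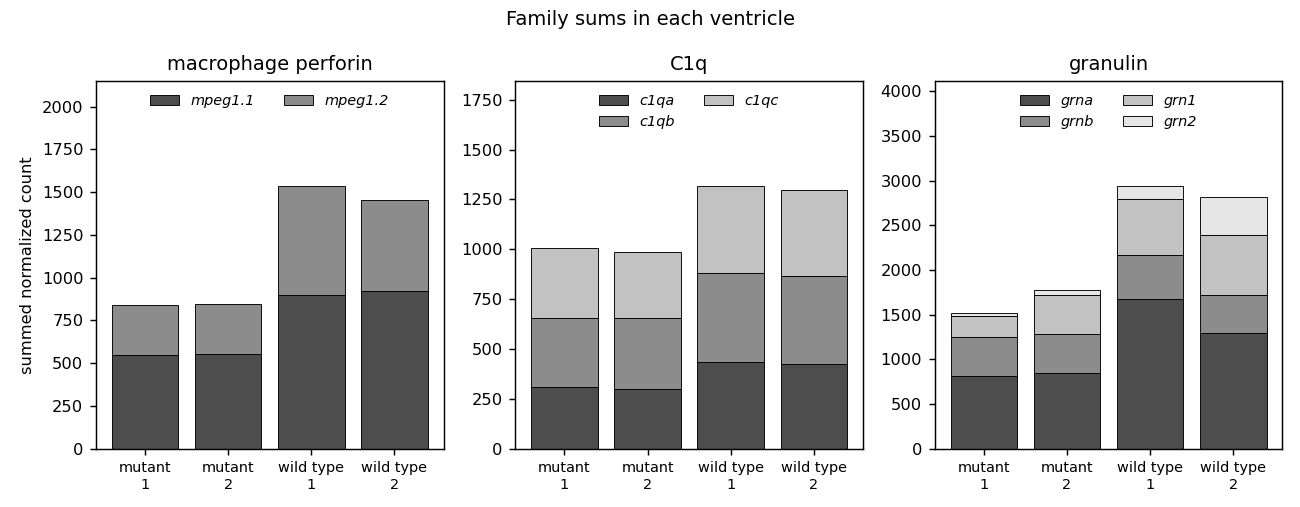
Summed normalized counts (vertical axes, starting at 0) of the macrophage perforin, C1q and granulin genes in each ventricle, with 1 bar per ventricle and 1 shade per gene. In all 3 families both mutant bars are lower than both wild-type bars, and the *grnb* segment, second from the bottom in the granulin bars, stays at a similar height in the 4 ventricles.

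The *grn1* and *grn2* genes lie inside the span of *grnas* (40186385 to 40205463), a gene on the forward strand that the annotation lists as antisense. *grnas* had 8 and 16 normalized counts in mutants, against 51 and 86 in wild types, a log2 fold change of -2.44 (limma adjusted p-value 0.0270). The libraries came from a stranded kit, but whether strand was used in counting is not given in the sources used here. Without strand, reads of *grnas* and of *grn1* or *grn2* cannot be told apart, and reads overlapping several genes were left out by the authors. The next gene, *cdk6*, a cyclin-dependent kinase that starts 52.2 kb from *grn2*, had 5 and 6 normalized counts in mutants, against 45 and 31 in wild types (log2 fold change -2.57, limma adjusted p-value 0.0284). In this group, 3 of the 4 neighboring genes were called lower, against 7.44% of all tested genes. This count is no test of the region. *grn2* belongs to the chosen set, *grnas* overlaps it, and *cdk6* passed the minimum average of 10 only through the wild types. A change shared along the chromosome and separate changes of single genes cannot be told apart here. The nearest genes outside the set were not called for *marco* (*insig2*), the C1q genes (*fbxo40.1* and *si:dkeyp-69c1.9*), *grna* (*RUNDC1*) or *grnb* (*si:ch211-40k21.9* and *arf2b*), and *c1ql2* beside *marco* and BX901883.3 inside *grna* were too low to be tested.

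**Figure D4:**
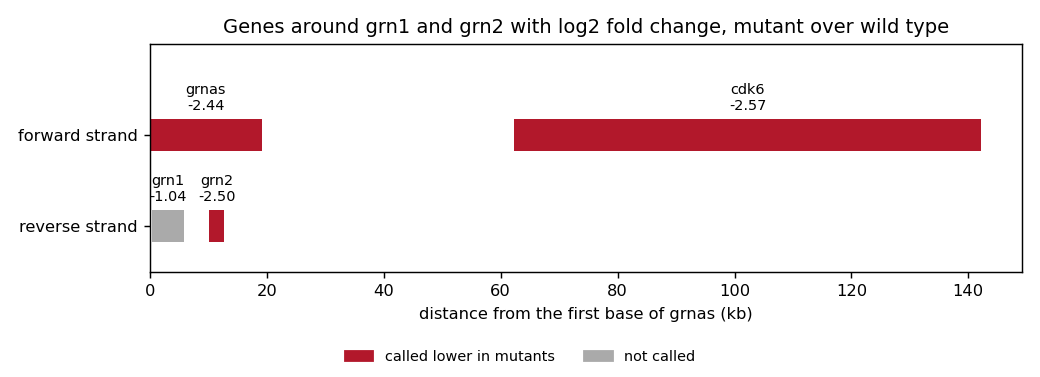
Map of *grnas*, *grn1*, *grn2* and *cdk6* by distance in kb from the first base of *grnas*, with each strand on a line of its own and the log2 fold change of mutants over wild types under each name. Red bars are genes called lower in mutants and the gray bar is *grn1*, with -1.04. *grnas*, *grn2* and *cdk6* range from -2.57 to -2.44.

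The 10 genes were set beside markers of the cells that a whole ventricle holds. Of 16 other macrophage markers, 14 were in the table and tested. Of these 14, 4 were called lower and 0 higher, against 7.44 and 2.7% of all tested genes. All 14 had both mutant values under the wild-type values, against 29.4% of all tested genes. *csf1ra* and *csf1rb*, receptors for macrophage growth factors, *mfap4*, a macrophage reporter gene in zebrafish, and *havcr1*, a receptor for dying cells, were the called ones. *mfap4* had 112 and 91 normalized counts in mutants, against 225 and 221 in wild types (log2 fold change -1.14, limma adjusted p-value 0.0214). *havcr1* had 267 and 292 in mutants, against 416 and 449 in wild types (log2 fold change -0.63, limma adjusted p-value 0.0485). *csf1ra*, 91.0 kb from *cd74a*, had a log2 fold change of -1.25 (limma adjusted p-value 0.0102) and *csf1rb*, at 11 and 3 in mutants, against 62 and 64 in wild types, of -3.21 (limma adjusted p-value 0.0229). Any effect of the nearness of *csf1ra* to the targeted gene *cd74a* was not tested. *csf1rb* passed the minimum average of 10 only through the wild types. The median over the 14 markers was -0.56, close to the -0.61 of the 10 genes, and their summed normalized count was 4562 and 4802 in mutants, against 7164 and 6600 in wild types. No macrophage marker in the table was at 0 in any ventricle. The part of macrophage content in the differences of the 10 genes was not tested, and in whole ventricles fewer cells of a type and less RNA per cell cannot be told apart.

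The summed markers of some other blood cells were lower as well. Of 8 markers shared by leukocytes, 1 was called lower, against 7.44% of all tested genes. It was the GTPase gene *rac2* (242 and 237 in mutants, against 468 and 443 in wild types, limma adjusted p-value 0.0170). In 7 of the 8, both mutants were below both wild types, against 29.4% of all tested genes, and the median log2 fold change was -0.45. By contrast, *wasb* was above both wild types, with 383 and 356 in mutants, against 311 and 340 in wild types. The summed count of the 8 was 4094 and 4144 in mutants, against 5842 and 5371 in wild types. Of 5 tested neutrophil markers, 2 were called lower, against 7.44% of all tested genes. They were *mpx*, encoding myeloperoxidase, and *npsn*, encoding nephrosin, with log2 fold changes of -1.56 and -1.64 (limma adjusted p-values 0.0235 and 0.0132). *lect2l* was lower without a call. The genotypes overlapped in *mmp9* (216 and 232 in mutants, against 293 and 179 in wild types) and in *cpa5* (23 and 19, against 20 and 82). The summed neutrophil markers were 406 and 405 in mutants, against 797 and 678 in wild types. Of 3 tested B cell markers, 1 was called lower, against 7.44% of all tested genes. It was the adaptor gene *blnk* (63 and 45 in mutants, against 157 and 109 in wild types). The B cell markers in the table summed to 72 and 58 in mutants, against 167 and 239 in wild types. The B cell receptor gene *cd79a* was at 4 and 5 in mutants, against 3 and 50 in wild types, *cd79b* was at 0 in the first wild type, and *pax5*, a defining B cell factor, was at 0 in both mutants and in the first wild type. Red cell markers summed to 2229 and 2324 in mutants, against 2751 and 5429 in wild types, and 0 of 7 were called by limma (5 at an unadjusted p-value under 0.05). The part of these cells in the values of the 10 genes was not tested.

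The median log2 fold changes for the resident cells of the heart were nearer to 0 than those of 5 blood cell lists. The latter were -0.56 for macrophage, -0.45 for leukocyte, -0.93 for neutrophil, -1.38 for B cell and -0.67 for red cell markers. The neutrophil median was the value of *cpa5* and the B cell median, over 3 genes, that of *cd79a*. In both genes the genotypes overlapped and the second wild type stood far above the other ventricles. The red cell sum was also highest in the second wild type, so these 3 medians are uncertain. Of the cardiomyocyte markers, *cmlc1* came close to 1 normalized count per base. It had 676 and 778 in mutants, against 660 and 714 in wild types, over a span of 796 bases. Whether differences of such abundant, short genes were compressed was not tested. The median was 0.11 over 7 cardiomyocyte markers (0 called by limma, 2 at an unadjusted p-value under 0.05). Those 2 were *ttn.2*, with a log2 fold change of -0.57, and *tnni1b*, with 0.49. Over 9 endothelial and endocardial markers the median was -0.01, with the receptor gene *notch1b* called lower and the adhesion gene *pecam1* called higher. Over 7 fibroblast and epicardial markers it was -0.24, with the fibronectin gene *fn1b* called lower. Over all tested genes, 7.44% were called lower and 2.7% higher. Among blood cells, the median was 0.26 over 7 T cell markers tested, of which 3 were below 0. This median was the value of *cd28*, with 11 and 9 in mutants, against 2 and 27 in wild types. Of the markers above 0, *cd28*, *lck* and *zap70* had both mutants between the wild types, and *tox* had both above. Of the T cell markers, *cd4-1* was called lower, with 21 and 19 normalized counts in mutants, against 171 and 162 in wild types. The T cell markers in the table summed to 227 and 250 in mutants, against 327 and 443 in wild types. The lower sum rested on *cd4-1*, and the sum and the median differed in direction. Among 4 thrombocyte markers the median was -0.01, with 0 called by limma and 1 at an unadjusted p-value under 0.05.

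**Figure D5:**
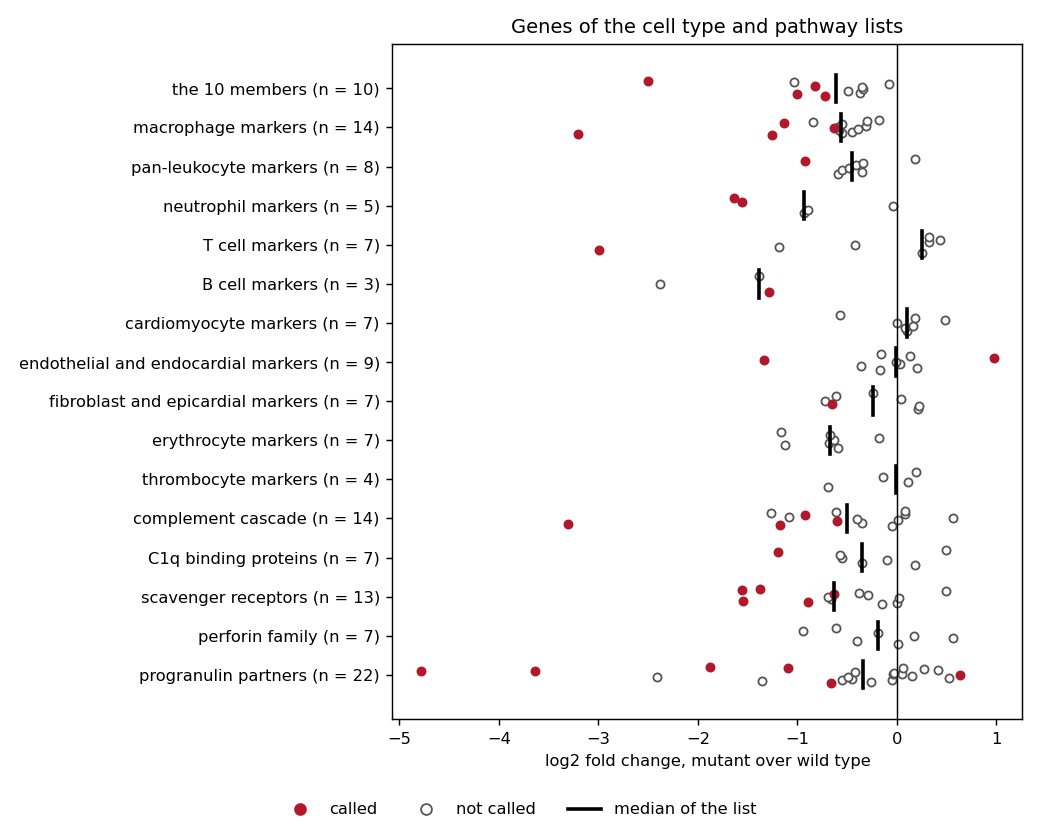
Log2 fold change of mutants over wild types for the 10 genes and for each tested gene of the cell type and pathway lists, with 1 point per gene, filled where the gene was called, and a bar at the median of each list. The macrophage list and the 10 genes have medians of -0.56 and -0.61, whereas the cardiomyocyte list has a median of 0.11.

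Elsewhere in the complement cascade, 2 C3 genes, 1 of 2 C4 genes and a factor B relative fell in the mutants. Of 36 listed complement genes, 22 were in the table and 14 were tested, with a median log2 fold change of -0.50. Of the 14, 4 were called lower and 0 higher, against 7.44 and 2.7% of all tested genes. This list and those that follow were chosen with earlier results of these libraries known, so their shares carry no test. *c3a.1*, encoding the central component C3, had 625 normalized counts in both mutants, against 1394 and 1425 in wild types (log2 fold change -1.17, limma adjusted p-value 0.00743). *c3a.4*, another C3 copy, had 7 and 11 in mutants, against 81 and 113 in wild types (log2 fold change -3.30, limma adjusted p-value 0.0105). It passed the minimum average of 10 only through the wild types. *cfbl*, related to complement factor B, had 339 and 343 in mutants, against 752 and 560 in wild types (limma adjusted p-value 0.0241). *c4b*, a C4 gene downstream of C1q, was just past the threshold (log2 fold change -0.60, limma adjusted p-value 0.0478), whereas the other C4 gene, *c4*, was not called, with 1801 and 1573 in mutants, against 1885 and 2441 in wild types (log2 fold change -0.35, limma adjusted p-value 0.22). By contrast, *c1s*, whose protease works in complex with C1q, had 352 and 389 in mutants, against 405 and 363 in wild types, so that the genotypes overlapped (log2 fold change -0.05, limma adjusted p-value 0.86). The C3 genes are related copies whose sequences were not compared here, and reads aligning to several regions were not counted. The share of reads given to each is therefore uncertain.

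Among proteins that bind C1q or C1q-tagged cells, 1 of 7 tested genes was called lower, against 7.44% of all tested genes. It was *lrp1ab*, encoding an endocytic receptor, with 1045 and 888 normalized counts in mutants, against 2087 and 2339 in wild types (log2 fold change -1.20, limma adjusted p-value 0.010). The calreticulin genes *calr*, *calr3a* and *calr3b* had log2 fold changes of -0.35, -0.10 and -0.55 that did not pass the threshold. *c1qbp*, which encodes a largely mitochondrial protein, had 595 and 699 in mutants, against 567 and 568 in wild types.

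Alongside *marco*, 13 other scavenger receptor genes were tested, with a median log2 fold change of -0.63. Of the 13, 5 were called lower and 0 higher, against 7.44 and 2.7% of all tested genes. The called genes were *stab1* and *stab2*, encoding stabilins, *mrc1a*, encoding a mannose receptor, *mertka*, encoding a receptor kinase for dying cells, and *scarb2a*, encoding a lysosomal membrane protein. *stab1* had 341 and 313 normalized counts in mutants, against 981 and 950 in wild types (log2 fold change -1.56, limma adjusted p-value 0.00653). In zebrafish the stabilins and *mrc1a* are made mainly by scavenger endothelial and lymphatic cells and are not specific to macrophages. *mertka* had 203 and 190 in mutants, against 413 and 322 in wild types (log2 fold change -0.89, limma adjusted p-value 0.0300). *colec12*, a collagen-like scavenger receptor as *marco* is, had 1232 and 1159 in mutants, against 1244 and 1412 in wild types, a log2 fold change of -0.15 (limma adjusted p-value 0.52).

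Of 22 tested genes for partners of progranulin and its lysosomal handling, 5 were called lower and 1 higher, against 7.44 and 2.7% of all tested genes. Their median log2 fold change was -0.34. The MiT-family transcription factor genes *tfe3a* and *tfe3b*, which drive lysosomal genes in mammals, had the largest decreases. *tfe3a* had 3 normalized counts in both mutants, against 40 and 59 in wild types (limma adjusted p-value 0.0138), and *tfe3b* had 5 and 1 in mutants, against 84 and 106 in wild types (limma adjusted p-value 0.0108). Both *tfe3a* and *tfe3b* passed the minimum average of 10 only through the wild types. *tnfrsf1b*, a TNF receptor gene, had 58 and 36 in mutants, against 172 and 170 in wild types (log2 fold change -1.88, limma adjusted p-value 0.0145). *tmem106bb*, encoding a lysosomal membrane protein, and *ctsba*, encoding the protease cathepsin B, had log2 fold changes of -1.09 and -0.66. *lamp1b*, a lysosomal membrane protein gene, rose, with 498 and 550 in mutants, against 328 and 346 in wild types (log2 fold change 0.63, limma adjusted p-value 0.0424). The sortilin genes, whose product carries progranulin to the lysosome, were not called, with log2 fold changes of -0.03 for *sort1a* and -0.42 for *sort1b*, nor was the prosaposin gene *psap*, with 1448 and 1595 in mutants, against 1579 and 1530 in wild types. *gpnmb*, a lysosomal glycoprotein gene of phagocytes, had 27 in both mutants, against 56 and 390 in wild types, and as with *grn2* the second wild type stood far above the other 3 ventricles (log2 fold change -2.41, limma adjusted p-value 0.0895).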

How the data were processed

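Per the labels and the paper's methods, reads of 4 single-ventricle libraries were trimmed (Trimmomatic 0.39), aligned to danRer11 with Ensembl annotation (STAR 2.7.9a), counted in exons per gene without reads of several genes or regions (featureCounts 2.0.2) and normalized (DESeq2 1.30.0). The deposited values are a score per gene and library: a count divided by a size factor and rounded. No count test was run on them. Whether duplicate reads were removed is not given in the sources used here.

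Mutants were compared with wild types, grouped by the labelled genotype, in limma 3.58.1 (R 4.3.3), a linear model whose variances are moderated along a trend with the mean (5.33 prior degrees of freedom), on log2(value + 1). Genes averaging under 10 were left out, and p-values were adjusted over the rest. The fit was also run on simulated counts with a smooth spread between libraries. These held no ventricle standing apart, as in *grn2* here, so that run is no check of such genes. The 10 genes and gene lists were chosen with earlier results of these data known. Named were the 10 genes, the targeted genes, the nearest gene on each side of each, further genes with their family symbols, and up to 6 called genes per list; uncalled genes of the lists and *myh6* were named after their values were seen. List symbols with several rows entered with the row of highest mean. Same-numbered ventricles deviated from their group means with a correlation of -0.07 across genes and belong to different animals, so no block was used. Figures used matplotlib 3.10.9. Alternatives were other pseudocounts, filters, trends, scalings and fold-change limits, a replicate block and leaving out each ventricle. No sequence is printed, because no table of them was used here.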

Additional observations from a re-analysis of the deposited data

How the results depend on the processing

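The log2 fold changes of 9 of the 10 genes were below 0 in all alternatives, and that of *grnb* ranged from -0.19 to 0.038 with single ventricles left out, the positive value being without the first wild type. The calls were less stable. Without a filter on low values, limma called 0 genes lower and 0 higher of 20984, 0 of the 10 among them, although 5015 genes and 9 of the 10 had an unadjusted p-value under 0.05. The 4 called genes then had adjusted p-values from 0.0602 to 0.0933. Without the mean-variance trend, 461 genes were lower and 82 higher, and 0 of the 10 were called (6 at an unadjusted p-value under 0.05, adjusted p-values of the 4 from 0.0694 to 0.114). With a fold change limit of 1, 1 of the 10 was called (*grn2*), while 1059 of all tested genes were lower and 238 higher. When any 1 ventricle was left out, 0 genes were lower and 0 higher, with 2174 to 3373 at an unadjusted p-value under 0.05. With the replicate block, 740 genes were lower and 215 higher, and *grna* was not called (adjusted p-value 0.0530). Under the scalings the median log2 fold change of all genes stayed between -0.03 and 0.03. The log2 ratio of the macrophage perforin sum was -0.89 with scaling to the upper quartile and -0.87 to -0.79 with single ventricles left out. For the C1q sum it was -0.42 with scaling to the total and -0.45 to the upper quartile. Leaving out single ventricles gave -0.93 to -0.70 for the granulin sum and -1.83 to -0.92 for *grn1* and *grn2* together. With 2 ventricles per genotype and values of 34 to 52 for *grn2* in mutants, counting error is largest for *grn2*. The causes of these changes were not tested.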
